A study of Mus musculus with 10 samples.

Results

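The genes followed here belong to red blood cell formation and were measured in mouse liver tissue sections by spatial transcriptomics. They were the transcription factor genes Gata1 and Klf1, the erythropoietin receptor gene Epor, the membrane transporter gene Slc4a1, the heme synthesis gene Alas2 and the adult globin genes Hba-a1, Hba-a2, Hbb-bs and Hbb-bt. They were chosen by name, as the rows of the deposited gene lists with those 9 symbols, out of 31053 genes. The study is of ABC-Myc mice, in which Cre recombinase driven by the mouse albumin enhancer and promoter removes a floxed stop cassette before a human c-MYC gene under the CAG promoter, on a C57BL/6J background. There were 10 Visium sections of 7 tissues: NEJ146 with 4 adjacent sections, and NEJ634, NEJ687, NEJ723, NEJ638, NEJ654 and NEJ677 with 1 section each. The labels call every tissue hepatoblastoma and speak of tumour or normal liver for the tissues with 1 section without saying which is which, whereas the text of the study speaks of 4 tumours, NEJ634, NEJ687, NEJ723 and NEJ146, and of 3 healthy livers. The 4 tumours are thus of ABC-Myc mice, which are Alb-Cre+/wt and CAG-MYC+/wt, the control mice of the study are littermates without one or both of these alleles, and the genotype of each of the 3 livers and the age of each tissue were not given in the sources used here. The human MYC transgene had no row of its own in the counts, and NEJ146 is labelled as total RNA and the other tissues as polyA RNA. The methods describe perfusion of the mouse through the heart before the tumour was taken out, frozen and cut, and for the livers this step was not given in the sources used here. Each tissue was treated as its own group, because the labels do not say which tissue is tumour and which is normal liver and 6 of the 7 had a single section. No test between tissues was made, and the differences between tissues below are descriptions.

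Red cells form from progenitors in a fixed order. GATA1 and KLF1 switch on the erythroid programme while signalling through the erythropoietin receptor keeps the progenitors alive, and the genes for band 3 (Slc4a1, the anion exchanger of the red cell membrane), for the erythroid form of the first enzyme of heme synthesis (Alas2) and for alpha and beta globin follow. The fetal liver is a site of red cell formation, which moves to the bone marrow around birth, and reticulocytes that have left the marrow still carry globin mRNA. In the adult liver lobule, Cyp2e1 marks hepatocytes around the central vein and Cyp2f2 hepatocytes around the portal tract.

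The 250 bases before the transcription start are shown for Alas2, for 1 alpha globin gene and for both beta globin genes. They were chosen because Alas2 moved with the globins over spots in some tissues and apart from them in others. The sequences come from RefSeq on GRCm38.p6, whose start sites can lie some bases from those of other annotations, read 5′ to 3′ on the gene's strand. Capitals mark matches on either strand to GATA-type letters (AGATAA or TGATAA or AGATAG or TGATAG) and to CACC-type letters (CCACCC or CACACCC), the kinds of sequence that GATA1 and KLF1 are known to bind.
Alas2 (chrX:150547167-150547416, plus strand): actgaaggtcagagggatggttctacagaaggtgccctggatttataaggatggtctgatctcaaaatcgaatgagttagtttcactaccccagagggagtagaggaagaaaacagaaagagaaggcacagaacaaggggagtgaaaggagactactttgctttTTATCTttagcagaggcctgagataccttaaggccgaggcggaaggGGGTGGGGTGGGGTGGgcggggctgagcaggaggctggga
Hba-a1 (chr11:32283422-32283671, plus strand): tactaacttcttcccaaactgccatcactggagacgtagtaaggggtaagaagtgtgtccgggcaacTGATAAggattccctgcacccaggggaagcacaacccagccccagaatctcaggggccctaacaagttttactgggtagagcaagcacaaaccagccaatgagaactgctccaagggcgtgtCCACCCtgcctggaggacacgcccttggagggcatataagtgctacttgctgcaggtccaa
Hbb-bs (chr7:103827929-103828178, minus strand): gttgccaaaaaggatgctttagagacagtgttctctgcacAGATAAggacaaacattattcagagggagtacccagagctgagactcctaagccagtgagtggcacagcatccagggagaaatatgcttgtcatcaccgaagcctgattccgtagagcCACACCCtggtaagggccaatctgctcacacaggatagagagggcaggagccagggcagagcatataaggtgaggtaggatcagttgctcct
Hbb-bt (chr7:103813924-103814173, minus strand): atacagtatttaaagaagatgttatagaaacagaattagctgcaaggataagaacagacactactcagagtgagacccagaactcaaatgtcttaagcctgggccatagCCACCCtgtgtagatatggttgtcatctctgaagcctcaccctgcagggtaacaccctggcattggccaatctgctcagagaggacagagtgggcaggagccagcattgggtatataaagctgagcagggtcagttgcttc
Of the 9 genes, 8 had an entry in the table of promoters, which runs from 250 bases before to 50 bases after the start. A GATA-type match lay in 6 of the 8 and in 29.8% of all 32851 promoters, and a CACC-type match in 8 of the 8 and in 36.5% of all promoters. Both lay in 6 of the 8, that is in all but Gata1 and Hbb-bt, and in 8.9% of all promoters. In Alas2 the CACC-type matches overlapped each other, and Hba-a1 and Hba-a2 differed by 6 edits over these 300 bases, so the matches were not independent of each other. Slc4a1 is named only. A match is a run of letters and not a measured binding site.

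Several facts of the libraries bear on the values. The sections held 1890 to 4878 spots over tissue and 39280329 to 117077925 UMIs (unique molecular identifiers, counted RNA molecules) in those spots, with a median of 12134 to 28927 UMIs per spot. Tissue spots were those of the deposited tissue call, and for NEJ146, for which no tissue call was used here, the spots with 8000 or more UMIs. Outside the tissue call, spots had a median of 10460 to 11895 UMIs in NEJ634, NEJ638, NEJ654 and NEJ677. The median was 7079 in NEJ723 and 6659.5 in NEJ687. Depth alone thus did not part tissue from background in all tissues, and the NEJ146 spots may include some off its tissue. The part of such spots in the NEJ146 values was not tested. Mitochondrial genes made up 6.78 to 7.22% of the UMIs of tissue spots in the NEJ146 sections and 2.46 to 3.86% in the other tissues. A tissue rule on the mitochondrial share, chosen after seeing the data, gave the same call for 72.9 to 86.2% of NEJ146 spots. In the other tissues it matched the deposited call for 86.3 to 93.0% of spots. A spot can hold several cells, so that fewer cells of a type and less RNA per cell cannot be told apart, and all 10 sections share the same grid of 4992 barcodes by design. The hepatoblastoma markers Afp, Igf2, Gpc3 and Dlk1 summed to 2136 ± 387 CPM in NEJ146 (UMIs per 1000000 UMIs of the tissue spots, SD, n = 4 sections), 4630 in NEJ634, 4564 in NEJ687 and 3822 in NEJ723. They summed to 14.97 CPM in NEJ638, 4.61 in NEJ654 and 5.55 in NEJ677, the tissues that the study does not name among its tumours, although their tissue label too reads hepatoblastoma. The 4 sections of NEJ146 differed from each other by more than counting noise, and section 4 stood farthest off (chi-square over its degrees of freedom 64.0 to 86.6 against it and 14.1 to 19.4 among sections 1 to 3). The batch of NEJ146 and the tissue cannot be told apart.

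The adult globin genes, which encode the chains of hemoglobin, were all higher in NEJ146, NEJ634, NEJ687 and NEJ723 than in NEJ638, NEJ654 and NEJ677. Summed over Hba-a1, Hba-a2, Hbb-bs and Hbb-bt they made up 9419 ± 515 CPM in NEJ146, 8451 in NEJ687, 2432 in NEJ723 and 915 in NEJ634, against 226 in NEJ638, 201 in NEJ677 and 80.0 in NEJ654. For tissues with 1 section the intervals given below are exact 95% Poisson or binomial intervals of the counts, which cover counting error only. Hbb-bs, the main beta globin gene here, stood at 5295, 5482, 5363 and 6320 CPM in sections 1 to 4 of NEJ146, and at 4828 (4810 to 4846) in NEJ687, 1317 (1306 to 1328) in NEJ723 and 479 (473 to 484) in NEJ634. In the other tissues Hbb-bs was at 132 (129 to 136) CPM in NEJ638, 112 (109 to 115) in NEJ677 and 47.5 (45.4 to 49.6) in NEJ654. The lowest of the first 4 tissues, NEJ634, thus stood 3.62-fold (3.52 to 3.71) above the highest of the other 3. NEJ687 lay within 2 SD of NEJ146, and by counting error alone the other tissues did not overlap their neighbours in the order. With the scaling factors of edgeR (TMM) the fold was 2.64 (2.57 to 2.71) and NEJ638 and NEJ677 were level, at 141.4 and 140.8. Globin UMIs were crowded in few spots, with 25.9% of them in the richest 1% of spots in NEJ638 and 30.3% in NEJ677. The intervals of the globin levels and folds are thus too narrow, and the order of close tissues is uncertain.

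Hbb-bt, the second adult beta globin gene, followed the same split with 655 (648 to 662) CPM in NEJ687, 645 ± 21.8 in NEJ146, 194 (190 to 198) in NEJ723 and 107 (104 to 109) in NEJ634, and 15.2, 10.6 and 5.27 CPM in NEJ638, NEJ677 and NEJ654. Hba-a1, an alpha globin gene, was at 1774 ± 60.6 CPM in NEJ146, 1608 in NEJ687, 544 in NEJ723 and 195 in NEJ634, and at 41.3, 38.5 and 14.2 CPM in NEJ677, NEJ638 and NEJ654. Its copy Hba-a2 was at 1385 ± 40.7 CPM in NEJ146, 1360 in NEJ687, 376 in NEJ723 and 135 in NEJ634, and at 39.5, 37.1 and 13.0 CPM in NEJ638, NEJ677 and NEJ654. All 4 globin genes were thus lowest in NEJ654 and, among the tissues with high hepatoblastoma markers, lowest in NEJ634. NEJ638 and NEJ677 changed places between genes and their intervals overlapped for Hba-a1 and Hba-a2.

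Slc4a1 was nearly absent from NEJ638, NEJ654 and NEJ677. Band 3, its product, is made in quantity by late erythroblasts. Slc4a1 was counted at 195 (191 to 199) CPM in NEJ687, 54.6 (52.4 to 56.8) in NEJ723, 46.2, 46.5, 41.2 and 31.6 in sections 1 to 4 of NEJ146, and 14.5 (13.5 to 15.5) in NEJ634. In NEJ638 there were 24 Slc4a1 UMIs in all (0.469 CPM, 0.300 to 0.698), in NEJ677 4 (0.102 CPM, 0.0277 to 0.261) and in NEJ654 1 (0.0235 CPM, 0.000596 to 0.131). The lowest of the first 4 tissues stood 30.9-fold (20.6 to 48.6) above the highest of the other 3 (22.6-fold, 15.1 to 35.5, with TMM factors), and NEJ723 lay within 2 SD of NEJ146.

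Alas2 did not follow Slc4a1. It encodes the erythroid 5-aminolevulinate synthase, and lies at chrX:150547375-150570638 on the plus strand of GRCm38. Alas2 was counted at 53.7 (51.8 to 55.6) CPM in NEJ687, 36.0, 37.0, 38.3 and 40.9 in sections 1 to 4 of NEJ146, 18.6 (17.3 to 19.9) in NEJ723 and 5.31 (4.72 to 5.94) in NEJ634. It was also counted at 50.7 (48.5 to 52.9) CPM in NEJ677, 16.5 (15.3 to 17.7) in NEJ654 and 12.7 (11.8 to 13.7) in NEJ638. NEJ634 was below all 3 tissues that hardly held Slc4a1. In CPM, NEJ677 was level with NEJ687 within the intervals and NEJ654 with NEJ723, but with TMM factors NEJ677 stood above NEJ687, at 63.7 against 46.6, and NEJ654 above NEJ723, at 19.4 against 15.03. The whole of Alas2 lies inside the span of Apex2, a DNA repair gene annotated on the minus strand, and the use of strand in the counting was not stated in the sources used here. Apex2 had 3.95 to 11.9 CPM in the 7 tissues, with 4.66 CPM in NEJ677.

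Of the genes of the early programme, Gata1 split the tissues as Slc4a1 did and Klf1 did not. Epor split them more weakly, and with other scaling the interval of its fold held 1. Gata1 was at 9.12 (8.36 to 9.94) CPM in NEJ687, 4.19 (3.61 to 4.85) in NEJ723, 2.14, 2.54, 2.13 and 2.52 in sections 1 to 4 of NEJ146, and 1.29 (1.01 to 1.62) in NEJ634. Only 3 UMIs of Gata1 were found in NEJ677 (0.0764 CPM), 1 in NEJ654 (0.0235 CPM) and none in NEJ638, where 3 counts would have been 0.0586 CPM. Epor was at 18.8 (17.7 to 19.9) CPM in NEJ687, 7.97 (7.16 to 8.86) in NEJ723, 4.53 ± 0.456 in NEJ146, 4.00 (3.49 to 4.55) in NEJ634, 2.40 (1.997 to 2.87) in NEJ638, 1.69 (1.33 to 2.13) in NEJ654 and 1.502 (1.14 to 1.94) in NEJ677. Its lowest level in the first 4 tissues was 1.66-fold (1.33 to 2.09) above its highest in the other 3, but 1.21-fold (0.971 to 1.53) with TMM factors and 1.204-fold (0.962 to 1.51) with those of DESeq2. For Gata1 the same fold was 16.9 (5.56 to 83.9) in CPM and 10.5 (3.45 to 52.1) with TMM factors, over 3 UMIs in NEJ677. Klf1 was at 14.8 (13.8 to 15.8) CPM in NEJ687 and between 3.34 and 6.19 CPM in the other 6, in the order NEJ654, NEJ723, NEJ146, NEJ638, NEJ677 and NEJ634, in which each tissue overlapped the next. This order too rested on the scaling, since with TMM factors it was NEJ654 (7.29), NEJ146 (5.33), NEJ638 (5.03), NEJ677 (4.96), NEJ723 (4.55) and NEJ634 (2.61). A tissue with 1 Gata1 UMI in 42493457 UMIs, NEJ654, thus had the second highest Klf1 with 263 UMIs.

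**Figure D1:**
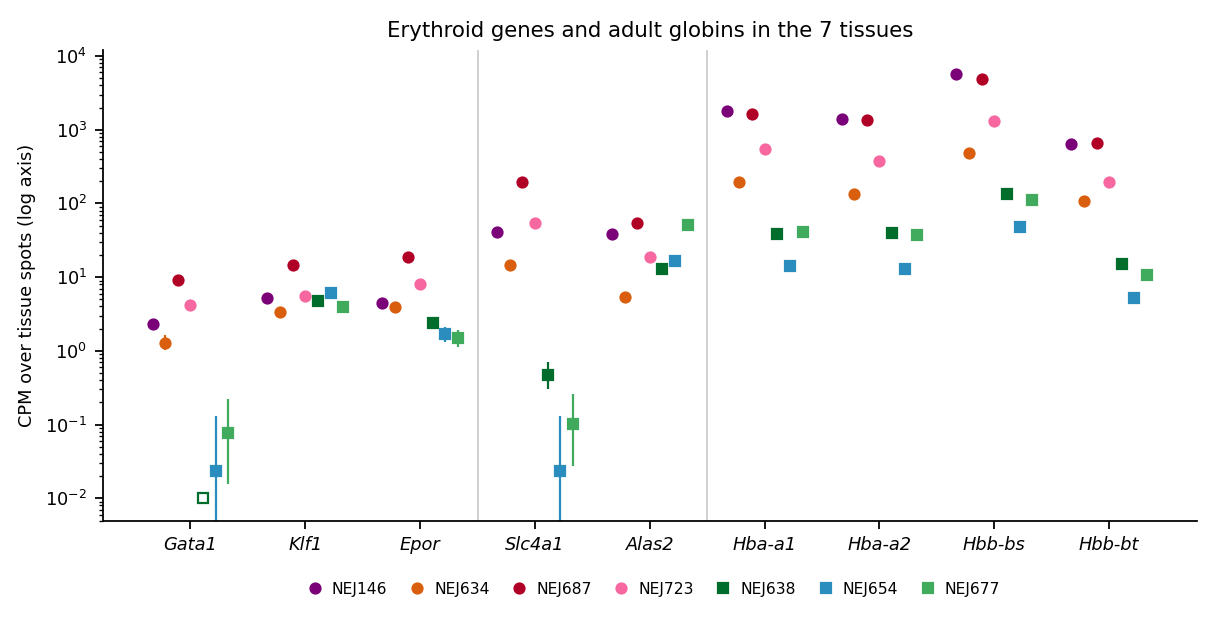
Level of the 9 genes over tissue spots (CPM, log axis) in the 7 tissues, circles for NEJ146, NEJ634, NEJ687 and NEJ723 and squares for NEJ638, NEJ654 and NEJ677. Bars are the SD over 4 sections for NEJ146 and exact 95% Poisson intervals for the others, and the open square stands for 0 Gata1 UMIs in NEJ638. Slc4a1 lies at 14.5 CPM or more in the circles and at 0.469 CPM or less in the squares, while the circles and squares of Klf1 and Alas2 overlap.

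Tissue by tissue, 6 of the 9 genes were more than 2-fold higher in each of NEJ146, NEJ634, NEJ687 and NEJ723 than in each of NEJ638, NEJ654 and NEJ677, on a scale of log2(CPM + 1). Among the 12648 genes that averaged 1 CPM or more over the tissues, 1071 (8.47%) did the same. The 6 were Gata1, Slc4a1 and the 4 globins, with log2 differences of 1.09 for Gata1, 3.40 for Slc4a1 and 1.74 to 2.74 for the globins. The 4 globins are not independent of each other, since they shared their spots and reads can fit both copies of a pair. The log2 difference of Gata1 fell under 1 with the scaling factors of edgeR or DESeq2, which left 5 genes. The other 3 did not reach 2-fold, with a log2 difference of 0.55 for Epor, -0.73 for Klf1 and -3.03 for Alas2. The median over the 9 genes was 1.74 and that over all genes tested -0.15. The pseudocount of 1 CPM makes the difference of a low gene such as Gata1 smaller on this scale than the ratio of its CPM. As a ratio of CPM, the difference was 4.72-, 3.41- and 7.04-fold for Hba-a1, Hba-a2 and Hbb-bt. With TMM factors it was 2.93-, 2.25- and 5.14-fold for these genes.

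NEJ634 stood apart from NEJ146, NEJ687 and NEJ723. Slc4a1, Alas2, Hba-a1, Hba-a2 and Hbb-bs, 5 of the 9, were more than 2-fold higher in each of those 3 tissues than in NEJ634, which 15 of 12648 genes (0.119%) were. Among the other 10 genes of the 15 were Rhag and Trim10, which encode a Rhesus-associated glycoprotein and an erythroid tripartite motif protein, and Cldn13. Several of these 10, Cldn13 among them, were in none of the lists of red cell genes described next. NEJ634 was singled out with earlier results of these data known, so that the count is a description. Nor are the 5 genes independent, since the globins and Alas2 shared their spots in these tissues. Gata1, Klf1 and Epor did not reach the fold, with log2 differences of 0.54, 0.50 and 0.15, and neither did Hbb-bt with 0.86.

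Other genes of the red cell programme were taken by role, and each count is to be read against the 8.47% of all genes that passed. Of 12 genes of the red cell membrane and its skeleton, 10 were past 2-fold in the first comparison, among them Rhd, a gene of the Rhesus blood group complex (9.02 ± 2.14 CPM in NEJ146, 49.0 in NEJ687, 7.08 in NEJ723 and 3.59 in NEJ634, and no UMI in the other 3). The exceptions were Epb41, a skeleton protein of many cell types, with 29.6 to 79.9 CPM over the 7 tissues, and Sptb. Of 8 further erythroid transcription factors, 7 had a mean of at least 1 CPM and 0 of the 7 passed, with a median log2 difference of 0.51. Of 5 genes of surface receptors and iron uptake, 1 passed, the transferrin receptor gene Tfrc (272, 439, 211 and 137 CPM in NEJ146, NEJ687, NEJ723 and NEJ634, and 7.18 to 38.8 in the other 3). Of 6 late erythroid proteins, 1 passed, Hemgn. These last 3 counts are few genes near the share of all genes, and the difference between the lists was not tested. The 6 embryonic and minor globins summed to 1.27 ± 0.0962 CPM in NEJ146 and 1.25 in NEJ687, nearly all of it Hbq1b, and to at most 0.550 CPM in the other 5 tissues, and none of the 6 had a mean of 1 CPM. Hbb-bh1, Hbb-bh2, Hbb-y and Hba-x, which mark embryonic red cells, each had under 0.1 CPM in every tissue.

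Markers of 2 other kinds of blood cell were mostly higher in the same 4 tissues, again against 8.47% of all genes. The 6 megakaryocyte and platelet markers summed to 85.5 ± 11.99, 64.2, 144 and 149 CPM in NEJ146, NEJ634, NEJ687 and NEJ723 and to 9.42 to 14.8 CPM in the other 3, and 3 of the 5 that were tested passed 2-fold. The 6 neutrophil lineage markers summed to 95.8 ± 19.8, 204, 450 and 185 CPM against 1.84 to 6.68, and 5 of the 6 passed. The 8 macrophage and Kupffer cell markers summed to 735 to 2149 CPM against 347 to 580, but 1 of the 8 passed, Vcam1, and the median log2 difference of the 8 was -0.39. The mast cell and basophil, eosinophil and lymphocyte markers had medians of 0.16, 0.22 and -0.47. All but 1 of them averaged under 1 CPM and so were not tested. The 1 that was tested, a lymphocyte marker, did not pass. Nor did any endothelial or hepatocyte marker, with medians of -1.17 and -3.45. The part of these cells in the levels of the 9 genes was not tested.

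Within a section, ratios of UMIs do not depend on the scaling. The ratio of early (Gata1, Klf1 and Epor) to late (Slc4a1 and Alas2) UMIs was 0.151 ± 0.00366 in NEJ146, 0.172 (0.164 to 0.179) in NEJ687, 0.243 (0.224 to 0.263) in NEJ723 and 0.436 (0.391 to 0.485) in NEJ634. It was 0.539 (0.473 to 0.613) in NEJ638, 0.479 (0.420 to 0.547) in NEJ654 and 0.109 (0.0942 to 0.125) in NEJ677. The order rested on Slc4a1: per Alas2 UMI alone, the early UMIs were 1.63 in NEJ634, 0.958 in NEJ723 and 0.795 in NEJ687, above the 0.559 of NEJ638 and the 0.480 of NEJ654, and 0.317 in NEJ146 and 0.109 in NEJ677. What the ratio counts differed between tissues. In NEJ638, NEJ654 and NEJ677 the late UMIs were nearly all Alas2, with 27.1 (18.1 to 42.6) Alas2 UMIs per Slc4a1 UMI in NEJ638 and 1990 Alas2 against 4 Slc4a1 UMIs in NEJ677. There the early UMIs were nearly all Klf1 and Epor. In the other 4 tissues Slc4a1 took the larger share of the late UMIs, with 0.366 (0.319 to 0.418), 0.276 (0.265 to 0.287) and 0.340 (0.314 to 0.368) Alas2 UMIs per Slc4a1 UMI in NEJ634, NEJ687 and NEJ723 and 0.778 to 0.930 in sections 1 to 3 of NEJ146, the exception being its section 4 with 1.29. Gata1 UMIs per Klf1 UMI were 0.456 ± 0.0608, 0.386 (0.291 to 0.509), 0.616 (0.551 to 0.687) and 0.747 (0.613 to 0.908) in NEJ146, NEJ634, NEJ687 and NEJ723.

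Globin UMIs per late UMI ran from 119 ± 14.2 in NEJ146 through 46.2 (43.5 to 49.0) in NEJ634, 34.0 (33.4 to 34.6) in NEJ687 and 33.3 (32.1 to 34.5) in NEJ723 to 17.1 (15.8 to 18.5) in NEJ638, 4.85 (4.47 to 5.27) in NEJ654 and 3.96 (3.77 to 4.16) in NEJ677. Per Alas2 UMI alone, there were 248 ± 4.86 globin UMIs in NEJ146, 172 in NEJ634, 157 in NEJ687, 131 in NEJ723, 17.7 in NEJ638, 4.86 in NEJ654 and 3.97 in NEJ677. The 4 sections of NEJ146 ran from 241 to 252, and the highest of NEJ638, NEJ654 and NEJ677 lay far below the lowest of the other 4 tissues.

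The balance between globin copies was less variable than their level. Alpha to beta globin UMIs ranged from 0.506 ± 0.0291 in NEJ146 to 0.639 (0.610 to 0.669) in NEJ677, while the CPM of each globin gene differed 106-fold to 125-fold between its highest and its lowest tissue. Hbb-bs to Hbb-bt UMIs were 8.73 ± 1.06 in NEJ146, 7.37 (7.29 to 7.45) in NEJ687, 6.79 (6.63 to 6.94) in NEJ723, 8.73 (8.10 to 9.41) in NEJ638, 9.01 (7.84 to 10.39) in NEJ654, 10.6 (9.55 to 11.7) in NEJ677 and 4.48 (4.36 to 4.61) in NEJ634, the lowest. Hba-a1 to Hba-a2 UMIs ranged from 0.976 (0.917 to 1.04) in NEJ638 to 1.45 (1.41 to 1.49) in NEJ634. The split between copies is uncertain. The shorter Hba transcript matched the longer with 17 edits over 554 bases (96.9% identity) and the shorter Hbb transcript with 47 over 628 (92.5%), so that reads can fit both copies. Hba-a1 lies at chr11:32283511-32284465 and Hba-a2 at chr11:32296489-32297298 on the plus strand, and Hbb-bs at chr7:103826534-103828096 and Hbb-bt at chr7:103812524-103813996 on the minus strand (GENCODE M21, GRCm38).

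Over the spots of a section, Alas2 and the globins formed one pattern in NEJ146 and NEJ687, where the early genes went with Slc4a1 instead. In NEJ634 and NEJ723, Slc4a1 went closely with Alas2 and the globins. Co-occurrence is given as a correlation of the excess over the count that a spot's total predicts, corrected for counting noise, which can pass 1 for sparse genes. Spots of a section share library and depth, so the values are descriptions. Alas2 went with the summed globins at 0.98 ± 0.00999 in NEJ146 and 0.99 in NEJ687. Slc4a1 went with the summed globins at only 0.35 ± 0.0280 in NEJ146 and 0.17 in NEJ687, and with Alas2 at 0.34 ± 0.0254 and 0.28. Gata1, Klf1 and Epor sided with Slc4a1 in these tissues: their correlation with Slc4a1 was 0.83 ± 0.102, 0.92 ± 0.111 and 0.87 ± 0.180 in NEJ146 and 0.63, 0.73 and 1.01 in NEJ687, and with the globins 0.19, 0.26 and 0.24 in NEJ146 and 0.06, 0.21 and 0.22 in NEJ687. Among the early genes, Gata1 with Klf1, Gata1 with Epor and Klf1 with Epor correlated at 0.89, 0.68 and 0.75 in NEJ146. In NEJ687 these pairs were at 0.31, 0.85 and 1.36, so that Gata1 and Klf1 went less closely with each other there.

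In NEJ634 and NEJ723 the late genes and globins shared their spots. Slc4a1 and Alas2 correlated at 0.95 in NEJ634 and 1.09 in NEJ723, Slc4a1 and the globins at 0.84 and 0.80, and Alas2 and the globins at 0.94 and 0.87. Klf1 correlated at 0.95 with Slc4a1 and 0.87 with the globins in NEJ634, with 189 UMIs, and at 0.38 with both in NEJ723. Epor, however, correlated at 0.72 with Slc4a1 and 0.40 with both Alas2 and the globins in NEJ634, and at 0.53, 0.68 and 0.48 with these in NEJ723. Gata1 correlated at 0.77 with Slc4a1, 0.76 with Alas2 and 0.62 with the globins in NEJ723 and had too few UMIs in NEJ634. The early genes thus had no common order in these 2 tissues. The distance between the 2 kinds of tissue narrowed but did not close when the 10 spots with most Alas2 UMIs were left out, with Slc4a1 and Alas2 at 0.45 in NEJ146 and 0.51 in NEJ687 against 0.96 in NEJ634 and 1.15 in NEJ723. The 4 globins correlated at 0.85 to 1.04 with each other in every tissue.

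Further genes of the programme, from lists chosen by role, were set against Slc4a1 and the globins. Of 28 such genes, none of them among the 9, with at least 200 UMIs in a section of NEJ146, 24 had a higher correlation with Slc4a1 than with the globins, and so had 27 of 30 in NEJ687, 11 of 12 in NEJ634 and 18 of 19 in NEJ723. This count alone is not particular to erythroid genes, since 17 of 18 macrophage, neutrophil and megakaryocyte markers also had the higher value with Slc4a1 in NEJ146 and in NEJ687, 11 of 17 in NEJ634 and 7 of 16 in NEJ723. The sizes differed: the median correlation of the erythroid lists was 0.85 with Slc4a1 and 0.30 with the globins in NEJ146 and 0.87 and 0.13 in NEJ687, against 0.14 and 0.06 and 0.11 and -0.00293 for the markers. In NEJ634 and NEJ723 the medians of the erythroid lists were closer to each other, at 0.39 and 0.32 and at 0.78 and 0.63. The membrane genes Rhag (0.99 with Slc4a1 and 0.31 with the globins in NEJ146) and Sptb (0.98 and 0.31) and the transcription factor Tal1 (0.84 and 0.19) had high values with Slc4a1. The genes that went with the globins in both NEJ146 and NEJ687 were Bpgm, whose product makes 2,3-bisphosphoglycerate in red cells (0.99 with the globins and 0.38 with Slc4a1 in NEJ146), Tent5c, a poly(A) polymerase gene that the files list as Fam46c (0.95 and 0.46), and Epb41 (0.80 and 0.51). Kit was the fourth such gene in NEJ146 only, with both values below 0. The proliferation gene Mki67 correlated at 0.62 with Slc4a1 and 0.10 with the globins in NEJ146, and at 0.86 and 0.07 in NEJ687, 0.26 and 0.08 in NEJ634 and 0.66 and 0.31 in NEJ723. Top2a, another proliferation gene, was lower with Slc4a1, at 0.36 and 0.07 in NEJ146, 0.49 and 0.06 in NEJ687, 0.02 and 0.00 in NEJ634 and 0.17 and 0.19 in NEJ723. Macrophage, neutrophil and megakaryocyte markers in NEJ146 and NEJ687 had correlations of -0.08 to 0.38 with Slc4a1, the highest for Vcam1 in NEJ146, and -0.09 to 0.14 with the globins.

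**Figure D2:**
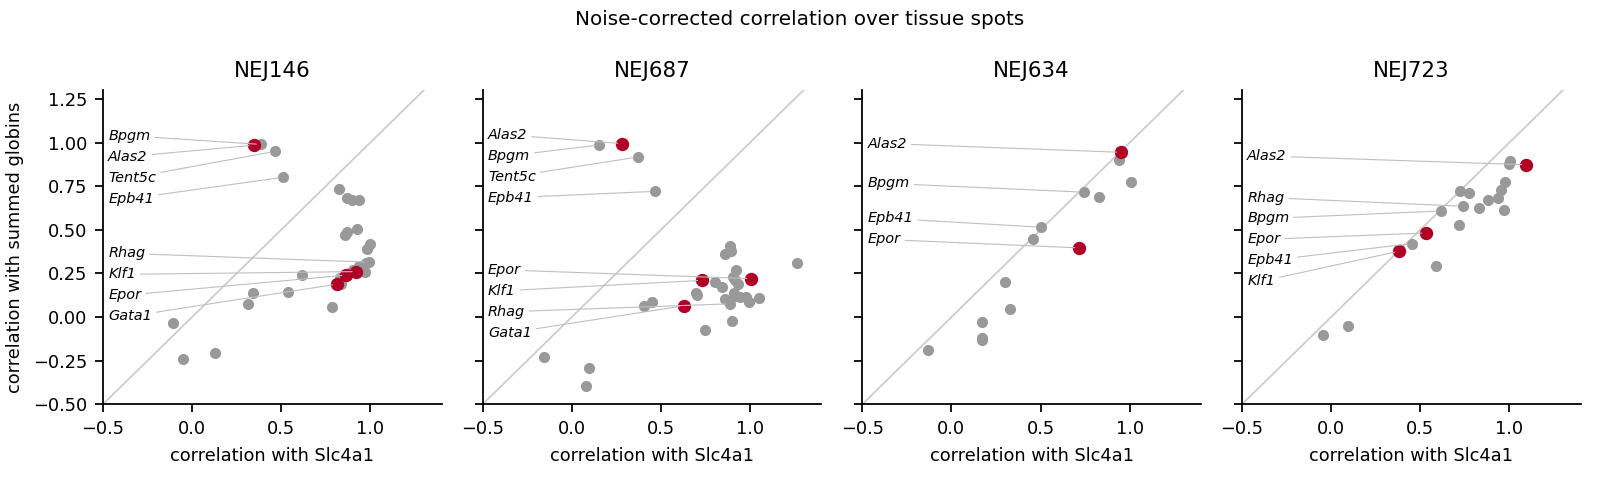
Noise-corrected correlation over tissue spots with Slc4a1 (x axis) and with the summed globins (y axis), without unit, and with the line of equal values. Points are Gata1, Klf1, Epor and Alas2 (red) and genes of the erythroid lists (grey), where they had at least 200 UMIs. In NEJ723, Zfpm1 (1.61 with Slc4a1) and Kit (-1.10) lie outside the drawn range. Alas2 and Bpgm lie at the top left in NEJ146 and NEJ687, at 0.34 and 0.38 with Slc4a1 in NEJ146, while Alas2 lies on the line at the top right in NEJ634.

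The patterns also differed in how uneven they were. The excess variance, the squared coefficient of variation between spots beyond counting noise, of the globins was 8.70 ± 2.55 in NEJ146, 10.9 in NEJ687, 12.4 in NEJ634, 1.24 in NEJ723 and 7.14 to 9.68 in NEJ638, NEJ654 and NEJ677. That of Alas2 was 9.71 ± 2.83 in NEJ146, 5.17 in NEJ687, 7.16 in NEJ634 and 1.09 in NEJ723, but 0.377 in NEJ638, 0.106 in NEJ654 and 0.0522 in NEJ677, where the globins were as uneven as in NEJ146. That of Slc4a1 was 2.17 ± 0.313 in NEJ146, 0.759 in NEJ687, 6.86 in NEJ634 and 0.905 in NEJ723. Klf1, with an excess variance of 1.12 ± 0.249 in NEJ146, 0.515 in NEJ687 and 0.642 in NEJ723, showed none beyond counting noise in NEJ638, NEJ654 and NEJ677, where the estimates were -0.0530, -0.145 and -0.815. The 1% of spots richest in globins held 26.5% ± 3.99 of the globin UMIs in NEJ146, 30.02% in NEJ634, 29.5% in NEJ687, 25.9% in NEJ638, 27.0% in NEJ654 and 30.3% in NEJ677, but 9.23% in NEJ723. The richest 1% held 6.23% of the Alas2 UMIs in NEJ677 and 29.1% ± 5.05 in NEJ146.

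The reach of the rich spots was followed over distance on the array. At 1 step, the excess of the globins kept 42.5 to 62.7% of its value within a spot in the sections of NEJ146, 75.3% in NEJ687, 41.5% in NEJ723, 32.9% in NEJ634 and 31.0% in NEJ638, but 5.40% in NEJ654 and 2.38% in NEJ677. The globin excess of NEJ654 and NEJ677 thus lay mostly within single spots, and that of NEJ687 had faded to 0.979% at 5 steps. Slc4a1 kept 58.0% at 1 step and 23.0% at 5 steps in NEJ687, where Alas2 kept 72.1% and 0.426%. In NEJ723 all 3 kept over 20% at 5 steps, with 20.6% for the globins, 24.2% for Alas2 and 23.2% for Slc4a1.

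**Figure D3:**
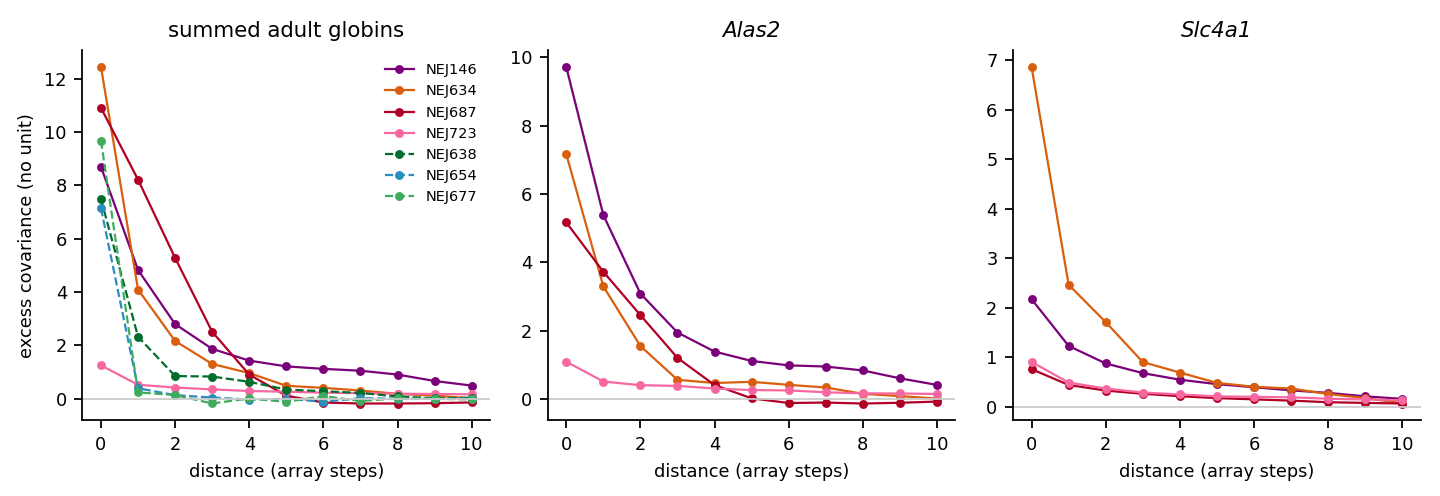
Excess covariance between spots (no unit) against their distance in array steps, for the summed globins in 7 tissues and for Alas2 and Slc4a1 in NEJ146, NEJ634, NEJ687 and NEJ723, with the value within a spot at 0 steps and the mean of 4 sections for NEJ146. The globin curves of NEJ654 and NEJ677 fall to 0.386 and 0.231 at 1 step, and in NEJ687 the globins and Alas2 fall to near 0 by 5 steps while Slc4a1 declines slowly.

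The genes whose pattern over spots was most like that of the summed Gata1, Klf1, Epor, Slc4a1 and Alas2 were ranked by the median over the 7 tissues of a plain correlation, among the 9894 genes that averaged 5 CPM or more. Among the 10 highest were Hba-a1 (0.51), Hba-a2 (0.45), Hbb-bt (0.43), Rhd (0.37), Hbb-bs (0.35), Cd24a (0.34), Tmcc2 (0.33), Rhag (0.31) and Cldn13 (0.30), against a 99th percentile of 0.0664 over all genes ranked. For Rhd, Rhag and Cldn13 the median is over the 4, 6 and 5 tissues in which they had UMIs. Hba-a1 reached 0.80 in NEJ146 and NEJ634, 0.52 in NEJ687 and 0.51 in NEJ723, but 0.04, 0.01 and 0.00 in NEJ638, NEJ654 and NEJ677. In those 3 tissues the summed genes were nearly all Alas2, Klf1 and Epor, at low counts. The plain correlation is not corrected for counting noise, so that its low values there cannot show that a likeness was absent.

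In NEJ638, NEJ654 and NEJ677, which held Alas2 almost without Slc4a1, the place of Alas2 in the lobule was examined. Spots with at least 500 UMIs were ranked by Cyp2e1 over Cyp2f2 and divided into 3 equal zones, named periportal, middle and pericentral, of 801 to 1127 spots each. The median UMIs per spot of the zones lay between 11533 and 19783, with most in the pericentral zone of each tissue. Genes that had no part in the ranking followed it, with Glul 4.37-, 3.94- and 5.67-fold higher in the pericentral zone of NEJ638, NEJ654 and NEJ677 and Hal higher in the periportal zone by 2.11, 1.96 and 2.17 on the log2 scale. Alas2 stood at 8.83, 12.5 and 16.0 CPM in the periportal, middle and pericentral zone of NEJ638, at 11.3, 16.9 and 20.7 CPM in NEJ654 and at 44.1, 49.6 and 58.3 CPM in NEJ677. It rose from zone to zone towards the central vein in all 3 tissues, by 1.81-fold, 1.82-fold and 1.32-fold from end to end. The log2 ratio of the periportal over the pericentral zone was -0.86 (-1.15 to -0.57), -0.86 (-1.15 to -0.59) and -0.40 (-0.56 to -0.25). Of 11328 genes with enough UMIs, 1.52% had a lower median of this ratio than Alas2, and the median over all was -0.04. With the spots in 10 bins, the rise in NEJ677 was not steady. Its outermost bins overlapped, at 48.6 (41.7 to 56.3) CPM in the most periportal and 55.2 (47.7 to 63.5) in the most pericentral. In NEJ638 and NEJ654 the outermost bins stood at 8.17 against 16.4 and 11.3 against 24.5 CPM.

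Spot by spot, Alas2 correlated at 0.63, 0.73 and 0.30 in NEJ638, NEJ654 and NEJ677 with Glul, which had no part in the ranking. Its correlations with the genes that made the zones, 0.51, 0.78 and 0.53 with Cyp2e1 and -0.39, -0.77 and -0.48 with Cyp2f2, restate the zone values. Its correlation with the summed globins was 0.25, 0.13 and 0.01. All these correlations are scaled by the excess variance of Alas2, which was as small as 0.106 in NEJ654 and 0.0522 in NEJ677. Their sizes are thus uncertain there, and no interval was made for them. In NEJ677, 491 of 2245 spots brought to an equal depth of 5000 UMIs had an Alas2 UMI (21.9%, 20.2 to 23.6% by the exact binomial interval), with 454 shallower spots left out, and 47.2% of all tissue spots had one without that step. Off the tissue of NEJ677 the share at equal depth was 19.4% (17.6 to 21.3%), at 0.845 times (0.784 to 0.910) the CPM of the tissue spots. Alas1, the gene of the housekeeping form of the enzyme, was also higher in the pericentral zone, by 1.22-, 1.35- and 1.63-fold, whereas the log2 ratio of Apex2, whose span covers Alas2 on the other strand, was -0.29 (-0.68 to 0.09), 0.39 (-0.15 to 0.93) and -0.03 (-0.57 to 0.51).

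The globins took another course in the lobule. Their summed CPM in the periportal, middle and pericentral zone was 209, 252 and 218 in NEJ638, 108, 75.4 and 58.6 in NEJ654, and 237, 220 and 148 in NEJ677. The log2 ratio of the periportal over the pericentral zone was -0.06 (-0.13 to 0.00) in NEJ638, 0.89 (0.77 to 1.01) in NEJ654 and 0.68 (0.60 to 0.76) in NEJ677. By these zones, globins and Alas2 leaned to opposite ends in NEJ654 and NEJ677. All 4 globin genes were higher in the periportal zone of those 2 tissues, Hba-a1 by 1.03 and 0.73 and Hbb-bt by 0.83 and 0.83 on the log2 scale. Since 1% of spots held 25.9 to 30.3% of the globin UMIs in these tissues, these ratios rest on few spots and their intervals, made from UMIs, are too narrow. With the spots in 10 bins, the globins of NEJ677 were level at the outermost ends. They stood there at 170 (156 to 183) CPM in the most periportal and 162 (149 to 176) in the most pericentral bin. The highest bin of NEJ677 was the second, at 292 CPM. In NEJ654 the outermost bins were at 93.7 and 43.9 CPM. Klf1 had log2 ratios of -0.26 (-0.73 to 0.20), -0.12 (-0.55 to 0.31) and -0.22 (-0.80 to 0.36), and Epor of 0.14, -0.30 and 0.04 with intervals that all held 0. Gata1 and Slc4a1 had too few UMIs. None of the 7 genes with at least 30 UMIs in the outer zones passed 1.5-fold at the same end in all 3 tissues, as 410 of 11328 genes (3.62%) did, 184 of them (1.62%) at the pericentral end.

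**Figure D4:**
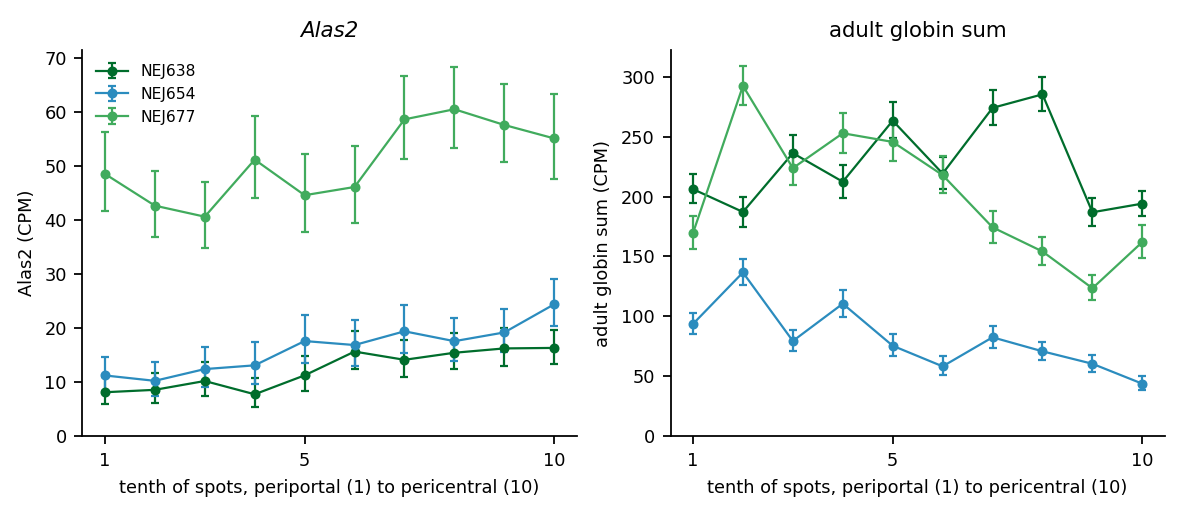
CPM of Alas2 (left) and of the summed adult globins (right) in 10 equal bins of the tissue spots of NEJ638, NEJ654 and NEJ677, ordered from periportal (1) to pericentral (10), with exact 95% Poisson intervals. Alas2 is higher in the pericentral than in the periportal zone in all 3 tissues (16.0 against 8.83 CPM in NEJ638), and the globins are higher in the periportal zone in NEJ654 and NEJ677 only.

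Globin RNA was not confined to the tissue, and neither was RNA in general. The spots outside the tissue call held 27.3 to 43.0% of all UMIs in NEJ634, NEJ638, NEJ723, NEJ654 and NEJ677 and 6.81% in NEJ687. In the spots outside the tissue call, the summed globins were at 1.13 (NEJ687) to 3.08 (NEJ638) times their CPM in the tissue spots. Alas2 was at 1.86 times in NEJ634, 1.84 times in NEJ723 and 1.14 times in NEJ687, but at 1.08, 0.998 and 0.845 times in NEJ638, NEJ654 and NEJ677. Slc4a1 was at 1.58, 1.59 and 1.16 times in NEJ634, NEJ723 and NEJ687, and in NEJ677 28 UMIs lay off the tissue against 4 on it (10.7 times in CPM, 3.75 to 42.0). In NEJ638, NEJ654 and NEJ677, Alas2 off tissue was thus near its level on tissue while the globins were 1.28 to 3.08 times as high. The part of this RNA in the values over tissue spots was not tested.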

How the data were processed

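The deposited counts are UMIs per gene and spot of Visium sections, whole numbers made by the authors. The labels' processing notes name Space Ranger 1.3 and mm10, whereas the methods of the study name another version of Space Ranger. For NEJ146 the notes name Cell Ranger 6.0, and no build was given in the sources used here. The study's own normalization was not used. Counts were summed over tissue spots per section and divided by the section's total to give CPM. NEJ146 is given as mean ± SD of 4 adjacent sections of 1 tissue, which are technical. The other tissues have 1 section and exact 95% intervals, which cover counting error only. No test between tissues was made. Co-occurrence was the covariance of counts over spots beyond that given by spot totals, divided by the noise-corrected variances, for genes with at least 100 UMIs. In zonation, genes were tested with at least 30 UMIs. Named genes were the 9 members, the genes of lists chosen by role and the 10 genes most like the erythroid sum. Also named were Alas1, Apex2, Mki67, Top2a and the hepatoblastoma markers Afp, Igf2, Gpc3 and Dlk1. The members and lists were chosen with earlier results of these data known. Scripts were tested on simulated data. Scaling factors came from edgeR 4.0.16 and DESeq2 1.42.0 in R 4.3.3, and the rest from Python 3.11.15 with numpy 2.4.6, scipy 1.17.1 and pandas 2.3.3. Alternatives were other scalings, filters, pseudocounts, spot rules, thinning and leaving out each NEJ146 section. A rule on the mitochondrial share of spots, other zonation settings for the globin sum and the fold counts without single sections were chosen after seeing the data. Ahsp was not analysed here. Some genes of the lists and of the 10 most like are not reported here.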

Additional observations from a re-analysis of the deposited data

Results flagged for a closer look

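In NEJ146, 20 values were checked for 1 section far from the other 3, a check that chance trips in about 1 in 20 groups, and 2 stood out. The ratio of Hbb-bs to Hbb-bt UMIs was 10.3 in section 4 against 8.10, 8.29 and 8.23 in sections 1 to 3. The correlation of Slc4a1 with the summed globins was 0.31 in section 1 against 0.36, 0.37 and 0.36 in sections 2 to 4. The zonation of the summed globins differed between tissues, with a log2 ratio of the periportal over the pericentral zone that was higher by 0.95 in NEJ654 and by 0.74 in NEJ677 than in NEJ638, and this difference was not tested over samples. Spots outside the tissue call, which were set only against the tissue spots of the same section and entered no comparison between tissues or zones, held summed globins at 9516 CPM in NEJ687, 6478 in NEJ723, 1871 in NEJ634, 694 in NEJ638, 258 in NEJ677 and 171 in NEJ654.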

How the results depend on the processing

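The early to late ratio rested on which genes it held. With Alas2 alone as the late gene it was 0.317 in NEJ146, 1.63 in NEJ634, 0.795 in NEJ687 and 0.958 in NEJ723, against 0.559, 0.480 and 0.109 in NEJ638, NEJ654 and NEJ677, so that NEJ634, NEJ687 and NEJ723 lay above NEJ638 and NEJ654 and no longer below them. Without Epor it was 0.0942, 0.234, 0.0963 and 0.134 in these tissues and 0.357, 0.377 and 0.0792 in NEJ638, NEJ654 and NEJ677. With NEJ146 spots chosen by mitochondrial share, after seeing the data, it was 0.168. Globin UMIs per late UMI became 248, 172, 157 and 131 in NEJ146, NEJ634, NEJ687 and NEJ723 with Alas2 as the late gene. Without the 10 spots with most Alas2 UMIs, the correlation of Slc4a1 and Alas2 was 0.45 in NEJ146, 0.51 in NEJ687 and 1.15 in NEJ723, and that of Alas2 and the globins 0.93 in NEJ634, 0.97 in NEJ687 and 0.91 in NEJ723. With spots thinned to 5000 UMIs these were 0.47 for Slc4a1 and Alas2 in NEJ687, and 0.93 and 0.85 for Alas2 and the globins in NEJ687 and NEJ723. Leaving out each NEJ146 section in turn gave 0.150 to 0.152 for its early to late ratio, 112 to 123 globin UMIs per late UMI, and correlations of 0.34 to 0.35 for Slc4a1 with Alas2 and 0.98 to 0.99 for Alas2 with the globins. Of 252 recomputed CPM values of the 9 genes, 93 moved beyond their error, 88 of them with the scaling factors of edgeR or DESeq2, under which the Epor fold between the tissues, 1.66, became 1.21 and 1.204 with intervals that held 1. The first fold comparison called 758 genes with edgeR and 736 with DESeq2 factors in place of 1071. The second called 30 with a pseudocount of 0.1, 7 from 10 CPM, and 23 with either factor, in place of 15. The count of genes past 1.5-fold at the same end was 594 from 10 UMIs, 255 from 100 UMIs and 417 with narrower outer zones in place of 410, and 0 of the 6 or 7 members tested passed in each. The log2 ratio of Alas2 ran from -1.01 to -0.81 in NEJ638, -0.88 to -0.79 in NEJ654 and -0.42 to -0.36 in NEJ677. These ranges do not include the outermost of 10 bins, whose Alas2 intervals overlapped in NEJ677. The log2 ratio of the globin sum in NEJ638, -0.06, was 0.01 with other index genes. The cause of these changes was not tested. No paired analysis was possible because NEJ146 alone has more than 1 section, so that no tissues share 2 section numbers. With 1 section a tissue, the spread between animals is not known, and the few Gata1 and Slc4a1 UMIs in NEJ638, NEJ654 and NEJ677, under 30 each, allow no zonation or co-occurrence there.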
